A study of Mus musculus with 16 samples.

Results

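Genes of DNA replication and mitosis were followed across sorted mouse liver cells: 40 members, 20 of S phase and 20 of mitosis, of 48795 gene identifiers counted. The members were given as a list of symbols, and each matched 1 identifier of the count table. The S phase members load and fire replication origins, supply nucleotides, drive entry into S phase or copy DNA methylation. The mitosis members are a proliferation marker, a topoisomerase, the mitotic cyclins and kinases, the spindle checkpoint, and the proteins of kinetochores and spindle.

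The 16 RNA-seq libraries covered 4 populations sorted from liver, 2 strains (C57BL/6 and BALB/c) and 2 genotypes (wild type and Ift88Orpk), with 1 library for each of the 16 combinations. All mice were 4 weeks old. Ift88Orpk is an insertion allele of Ift88, a gene of transport within cilia, and mice that carry it develop cystic kidney and liver disease. The sorted populations were labelled Ly6chi infiltrating macrophages, Ly6clo infiltrating macrophages, neutrophils and cholangiocytes, and are called Ly6Chi, Ly6Clo, neutrophils and DBA-sorted cells here. DBA is the lectin used to sort the cholangiocytes. RNA was pooled over 6 to 8 mice of both sexes for each library, so no library shows the spread between mice. P-values of population comparisons measure how far the difference between populations varies from one strain and genotype combination to another. Those of genotype and strain measure the variation left, over all populations, once strain and genotype effects are fitted in each population.

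Gene counts totalled 10170795 to 26093556 per library, and levels are CPM, counts relative to each library's gene total, scaled with TMM factors of 0.621 to 1.23. The 10 neutrophil markers summed to 19631.5 to 30120.3 CPM in neutrophils and to 8.28 to 1843.6 CPM elsewhere. The 9 markers of Ly6Chi monocytes summed to 6361.9 to 8663.1 CPM in Ly6Chi, 1041.6 to 2465.5 in Ly6Clo, 2775.2 to 5768.2 in neutrophils and 276.3 to 1225.6 in DBA-sorted cells. The 9 markers of Ly6Clo monocytes did not set Ly6Clo apart from the other myeloid populations, at 3298.3 to 5075.3 CPM in Ly6Clo, 3389.3 to 4770.8 in Ly6Chi and 3642.0 to 6380.8 in neutrophils. In the DBA-sorted libraries all 10 cholangiocyte markers were present and summed to 621.4 to 1179.4 CPM, whereas the 11 sinusoidal endothelial markers summed to 13928.1 to 22381.2 CPM and the 10 stellate and fibroblast markers to 1847.4 to 9591.7 CPM. The label of cholangiocytes is therefore not used for these libraries. In bulk RNA, fewer dividing cells and less of a transcript in each dividing cell cannot be told apart.

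A cell copies its genome once per division. Before S phase, Cdc6 and Cdt1 load the ring of Mcm proteins onto replication origins. Cdc45 and the GINS complex, of which Gins2 is a subunit, turn the ring into the helicase of the fork, and Pcna is the sliding clamp that holds DNA polymerases on the template. E2F transcription factors, held back by the retinoblastoma protein until cyclins D and E act on it, drive many of these genes. Genes needed later, in G2 and mitosis, are in large part driven by complexes of MuvB with B-Myb and Foxm1, which bind a promoter element called CHR (cell cycle genes homology region) often accompanied by CCAAT boxes bound by NF-Y. Most blood neutrophils and monocytes have left the cell cycle, and division of myeloid cells takes place largely in their precursors and in some tissue macrophages.

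The promoters of the members carried these elements in different shares, and stretches of 9 of them are shown because they hold the matches counted here. RefSeq windows of 300 bases (250 before the start site to 50 after it, GRCm38.p6) were held for 34 of the 40 members, 17 of each phase. The letters searched on both strands were TTTCGCGC or TTTGGCGC for E2F, TTTGAA or TTCGAA for CHR, and CCAAT. An E2F match stood in 6 of 17 S phase members (35.3%), in 1 of 17 mitosis members (5.88%, Cdk1) and in 0.929% of the 27025 genes of the table. A CHR match stood in 3 of 17 S phase members (17.6%), in 13 of 17 mitosis members (76.5%) and in 21.7% of all genes. CCAAT stood in 58.8% of S phase members, 88.2% of mitosis members and 41.1% of all genes. Both E2F and CHR matches were found in 2 members, Mcm7 and Cdk1, and neither in 13.

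In the stretches that follow, capitals mark the matches, read 5′ to 3′ on the strand of the gene. An E2F match and the reverse complement of the other E2F form overlap in the Mcm5 and Mcm6 stretches.
Mcm5: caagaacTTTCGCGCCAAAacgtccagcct
Mcm6: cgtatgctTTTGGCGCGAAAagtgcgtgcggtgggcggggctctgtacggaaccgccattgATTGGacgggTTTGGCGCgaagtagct
Uhrf1: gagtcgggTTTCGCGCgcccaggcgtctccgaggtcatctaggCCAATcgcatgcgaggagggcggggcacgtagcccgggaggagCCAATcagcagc
Cdk1: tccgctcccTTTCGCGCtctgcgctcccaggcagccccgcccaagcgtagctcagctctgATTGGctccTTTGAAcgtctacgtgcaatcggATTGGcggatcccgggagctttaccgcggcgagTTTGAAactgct
Ccnb2: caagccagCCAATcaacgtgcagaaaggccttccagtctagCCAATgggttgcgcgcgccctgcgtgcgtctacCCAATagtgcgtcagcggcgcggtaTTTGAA
Cdc20: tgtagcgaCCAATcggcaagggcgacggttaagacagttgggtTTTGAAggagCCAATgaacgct
Mki67: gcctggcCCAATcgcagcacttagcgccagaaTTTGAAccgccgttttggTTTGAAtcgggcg
Top2a: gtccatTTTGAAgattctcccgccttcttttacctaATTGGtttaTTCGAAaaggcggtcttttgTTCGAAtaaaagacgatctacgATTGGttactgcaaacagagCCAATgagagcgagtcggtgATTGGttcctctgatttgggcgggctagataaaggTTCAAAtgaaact
Kif23: caggcggccgctgATTGGcctgTTTGAAat

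On the plus strand, the Mcm5 stretch lies at chr8:75109349-75109378 and that of Uhrf1, from the second of its windows, at chr17:56304120-56304217. The other stretches are on minus strands: Mcm6 at chr1:128359736-128359823, Cdk1 at chr10:69352916-69353052, Ccnb2 at chr9:70421545-70421649, Cdc20 at chr4:118437340-118437404, Mki67 at chr7:135716465-135716527, Top2a at chr11:99024200-99024374 and Kif23 at chr9:61946790-61946819. A match is a run of letters, and binding was not measured.

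Together, the members were highest in Ly6Clo macrophages and DBA-sorted cells and lowest in Ly6Chi macrophages and neutrophils. Values per library are given throughout in the order C57BL/6 wild type, C57BL/6 Ift88Orpk, BALB/c wild type and BALB/c Ift88Orpk. The 20 S phase members summed to 317.3, 317.3, 238.9 and 259.5 CPM in Ly6Chi, to 688.5, 705.0, 617.6 and 598.9 CPM in Ly6Clo, to 162.6, 241.0, 231.8 and 181.2 CPM in neutrophils, and to 443.2, 485.0, 603.4 and 497.1 CPM in DBA-sorted cells. The lowest Ly6Clo library lay below the highest DBA-sorted library, and neutrophils overlapped with Ly6Chi at one library. The 20 mitosis members summed to 204.9, 184.8, 137.0 and 96.13 CPM in Ly6Chi, to 488.4, 450.6, 539.4 and 393.1 CPM in Ly6Clo, to 349.4, 413.3, 441.1 and 423.1 CPM in neutrophils, and to 319.9, 438.0, 574.6 and 357.3 CPM in DBA-sorted cells. All Ly6Chi libraries lay below all other libraries in the mitosis sum, and the other 3 populations overlapped.

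**Figure D1:**
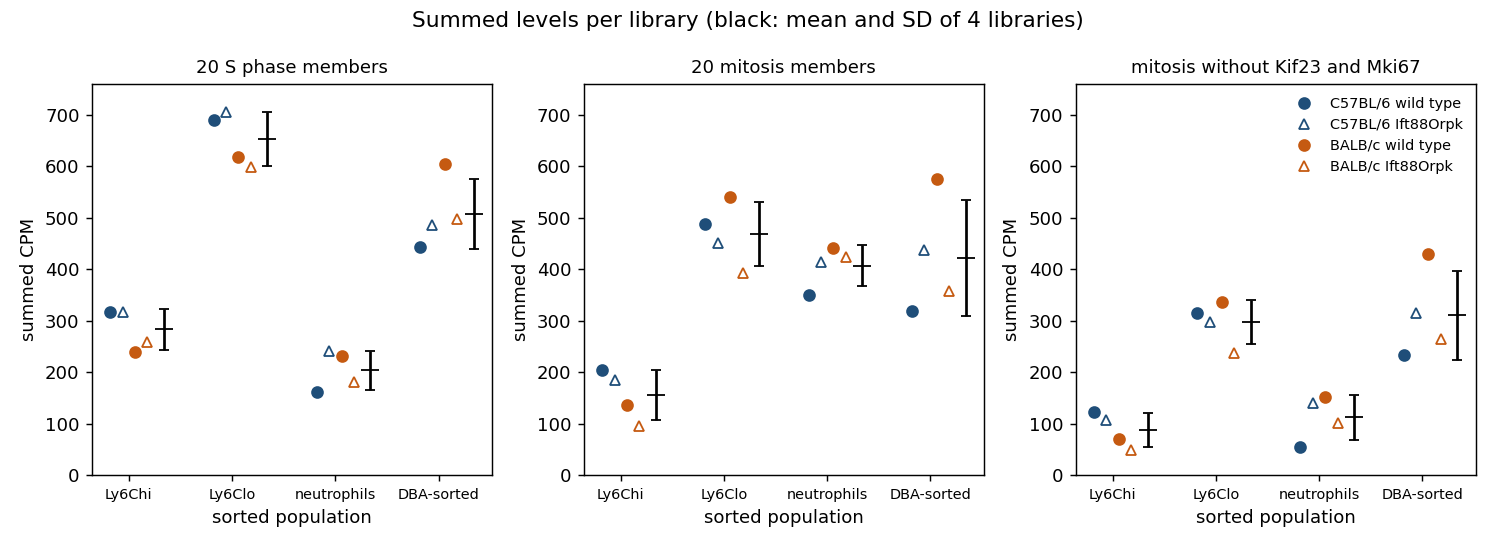
Summed CPM of the S phase members (left), the mitosis members (middle) and the mitosis members without Kif23 and Mki67 (right) in each library, by sorted population, with the mean and SD of 4 libraries in black. S phase sums were highest in Ly6Clo (652.5 ± 52.1 CPM), and the neutrophil mitosis sum of 406.8 ± 39.9 CPM is 112.5 ± 43.9 CPM without these 2 genes.

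The neutrophil mitosis sum rested on 2 genes. Kif23 held 44.5% of it and Mki67 27.8%, against 6.68 and 29.8% in Ly6Clo. Without both, a calculation chosen after their values were seen, the sum was 88.2 ± 33.8 CPM in Ly6Chi, 297.0 ± 42.6 CPM in Ly6Clo, 112.5 ± 43.9 CPM in neutrophils and 310.6 ± 86.2 CPM in DBA-sorted cells (mean ± SD, n = 4). By population mean, 16 of the 20 S phase members were highest in Ly6Clo and 4 in DBA-sorted cells, and 17 were lowest in neutrophils. Of the mitosis members, 10 were highest in DBA-sorted cells, 9 in Ly6Clo and 1, Kif23, in neutrophils, and 17 were lowest in Ly6Chi. Per kilobase of exon, the mean level over the 16 libraries ran from 29.6 CPM for Pcna, 10.8 for Mcm3 and 10 for Mki67 down to 0.609 for Gins2.

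**Figure D2:**
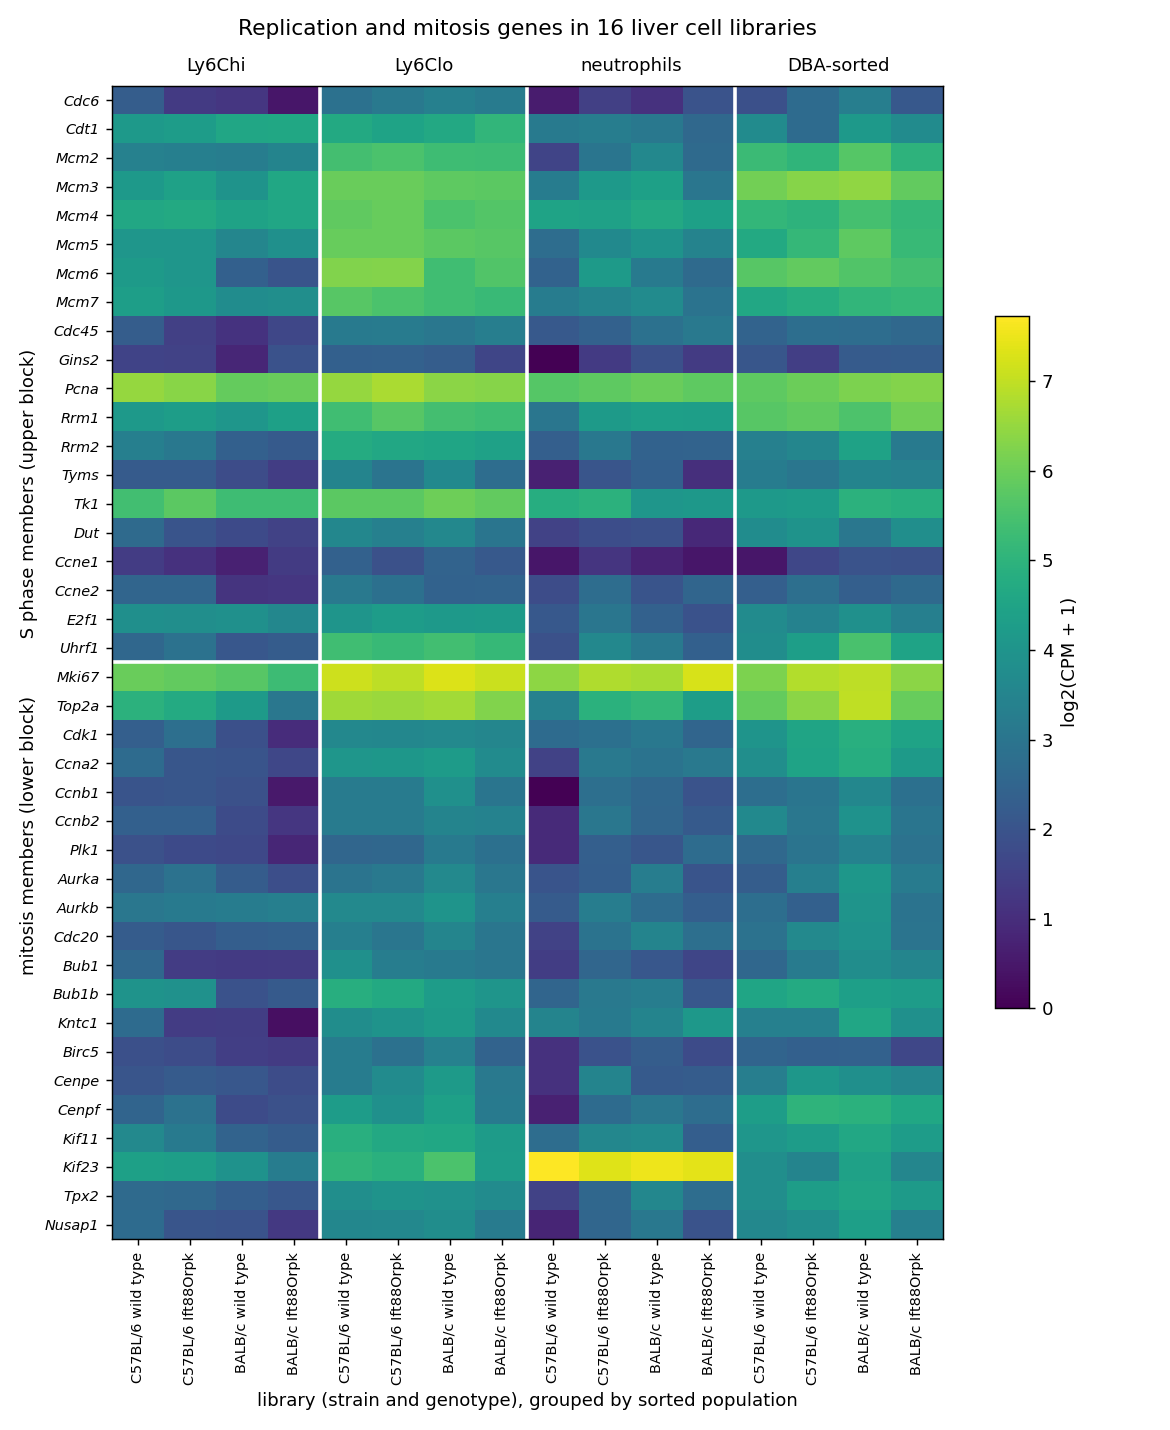
Level of each member, as log2(CPM + 1), in the 16 libraries, grouped by population, with S phase members in the upper block and mitosis members in the lower. Ly6Clo and DBA-sorted columns are brighter for most members, and Kif23 stands out in the 4 neutrophil libraries at 162.3 to 210.3 CPM.

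The study asked how early infiltrating macrophage subtypes relate to later disease, so Ly6Chi was first compared with Ly6Clo. In Ly6Chi, 17 of 20 S phase members and 19 of 20 mitosis members fell and none rose, by edgeR's quasi-likelihood test with Benjamini-Hochberg adjustment over all genes (called below an adjusted p of 0.05). Of all 18588 genes tested, 11% were called lower and 10.9% higher. The median log2 fold change was -1.62 over the S phase members and -1.79 over the mitosis members, beside -0.02 over all genes.

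The genes that license and run forks differed in size of change. The 6 subunits of the Mcm ring, which act as one complex, all fell, from -1.21 ± 0.09 (SE, Mcm4, adjusted p = 5.28e-05) to -2.85 ± 0.28 (Mcm6, adjusted p = 0.000175) on the log2 scale. Mcm3 was at 16.8, 20.6, 14.7 and 23.2 CPM in Ly6Chi, 61.2, 61.0, 55.2 and 53.4 in Ly6Clo, 8.39, 16.7, 20 and 7.11 in neutrophils, and 67.3, 78.8, 86.4 and 56.8 in DBA-sorted cells. Mcm4 was at 23.8, 24.9, 20.7 and 22.9 CPM in Ly6Chi, 56.6, 60.0, 45.7 and 49.7 in Ly6Clo, 21.5, 20.2, 24.1 and 19.8 in neutrophils, and 33.4, 31.0, 42.2 and 34.6 in DBA-sorted cells. Neither gene overlapped between Ly6Chi and Ly6Clo. The loader Cdc6 fell by 2.44 ± 0.50 (adjusted p = 0.00785), while Cdt1, the other loader, was at 16.8, 18.1, 23.0 and 23.3 CPM in Ly6Chi and 25.0, 21.2, 24.3 and 32.6 in Ly6Clo and was not called (-0.35 ± 0.13, adjusted p = 0.0832). The predicted gene Gm20388 overlaps the span of Cdt1 on the same strand and may take reads from it. Their exons were not compared.

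At the fork, Cdc45 fell by 2.0 ± 0.30 (adjusted p = 0.00158), and Gins2, at means of 1.88 and 3.60 CPM, was not called. The clamp Pcna was at 88.9, 80.4, 58.6 and 61.2 CPM in Ly6Chi, 89.3, 107.2, 82.8 and 78.7 in Ly6Clo, 50.4, 55, 61.5 and 55.4 in neutrophils, and 54.7, 62.4, 71.9 and 76.5 in DBA-sorted cells. Its fall of 0.33 ± 0.10 was the smallest of all 40 members (adjusted p = 0.0436), its groups overlapped, and the call was lost without C57BL/6 Ift88Orpk, BALB/c wild type or BALB/c Ift88Orpk (adjusted p = 0.104 to 0.183). Pcna, Ccnb1, Ccnb2 and Tyms have annotated pseudogenes, with which reads can be shared. Among genes of nucleotide supply, both subunits of ribonucleotide reductase fell, Rrm1 by 1.29 ± 0.12 and Rrm2 by 2.01 ± 0.21, as did the thymidylate synthase Tyms (-1.61 ± 0.27) and the dUTPase Dut (-1.72 ± 0.25). Rrm2 was at 9.13, 7.58, 4.21 and 3.60 CPM in Ly6Chi, 25.9, 23.6, 22.5 and 20.4 in Ly6Clo, 4.01, 7.56, 4.37 and 4.55 in neutrophils, and 9.27, 10.7, 20.9 and 8.01 in DBA-sorted cells. The thymidine salvage kinase Tk1 was nearer to equal, at 40.5, 53.4, 39.1 and 38.7 CPM in Ly6Chi and 54.4, 53.8, 63.3 and 57.5 in Ly6Clo. The call of its fall of 0.43 ± 0.12 (adjusted p = 0.0324) was lost without C57BL/6 wild type or either BALB/c genotype (adjusted p = 0.0939 to 0.111). Gm20708 and Afmid overlap the span of Tk1 on the other strand, and the strand setting of the counting is not given.

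Of the regulators of S phase entry, the cyclins Ccne1 and Ccne2 fell by 1.65 ± 0.40 and 1.13 ± 0.32. Ccne1 missed the threshold without C57BL/6 wild type, C57BL/6 Ift88Orpk or BALB/c wild type (adjusted p = 0.0501 to 0.058), and Ccne2 without C57BL/6 wild type or either BALB/c genotype (adjusted p = 0.0692 to 0.105). The transcription factor E2f1, by contrast, was at 13.3, 13.1, 13.8 and 10.9 CPM in Ly6Chi and 15.2, 18.3, 16.6 and 17.3 in Ly6Clo and was not called (-0.41 ± 0.14, adjusted p = 0.0717), although no Ly6Chi library reached a Ly6Clo library. Uhrf1, which brings the maintenance methyltransferase to newly copied DNA, had the largest fall of the 40 at 3.07 ± 0.19 (adjusted p = 2.13e-05). It was at 4.99, 6.46, 3.31 and 3.79 CPM in Ly6Chi, 40.3, 35.7, 40.5 and 35.3 in Ly6Clo, 2.75, 11.1, 7.75 and 4.17 in neutrophils, and 12.8, 18.9, 44.1 and 21.4 in DBA-sorted cells. Ly6Clo stood above every Ly6Chi and neutrophil library, while 1 DBA-sorted library was higher still.

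The proliferation marker Mki67 was at 61.3, 57.4, 51.1 and 38.2 CPM in Ly6Chi and 140.8, 123.3, 157.3 and 137.2 in Ly6Clo, a fall of 1.45 ± 0.13 (adjusted p = 0.000115). Top2a, the topoisomerase that untangles sister chromatids, was at 30.5, 25.3, 17.6 and 7.33 CPM in Ly6Chi and 98.1, 92.6, 98.7 and 75.6 in Ly6Clo (-2.33 ± 0.24). Both genes were lower in each Ly6Chi library than in any Ly6Clo library. The mitotic kinase Cdk1 (-1.87 ± 0.37) and its cyclins Ccna2 (-2.23 ± 0.22), Ccnb1 (-2.10 ± 0.39) and Ccnb2 (-1.70 ± 0.34) all fell. Ccnb2 was at 4.14, 4.18, 2.37 and 1.35 CPM in Ly6Chi, 8.21, 8.33, 10.3 and 9.68 in Ly6Clo, 0.876, 7.43, 4.87 and 3.60 in neutrophils, and 11.8, 7.33, 14.4 and 7.06 in DBA-sorted cells.

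Aurkb, the kinase of the chromosomal passenger complex, was the mitosis member not called (-0.50 ± 0.18, adjusted p = 0.0891). It was at 7.35, 8.07, 8.52 and 9.0 CPM in Ly6Chi, 11.4, 11.3, 14.9 and 9.08 in Ly6Clo, 3.63, 8.60, 5.65 and 3.98 in neutrophils, and 5.87, 4.14, 15.1 and 6.74 in DBA-sorted cells. Its partner in that complex, Birc5, fell by 1.76 ± 0.28 (adjusted p = 0.00216), from 8.38, 6.34, 9.46 and 4.50 CPM in Ly6Clo to 2.70, 2.44, 1.68 and 1.54 in Ly6Chi. Plk1, another mitotic kinase, fell by 1.65 ± 0.39, a call lost without BALB/c wild type (adjusted p = 0.0564). Aurka, the kinase of spindle poles, was called at -0.94 ± 0.28, but not with any one strain and genotype left out (adjusted p = 0.05 to 0.152). The checkpoint genes Bub1 (-2.13 ± 0.26), Bub1b (-1.59 ± 0.30) and Kntc1 (-3.06 ± 0.51) fell, and so did Cdc20, the activator of the anaphase-promoting complex (-1.17 ± 0.22), at 3.72, 3.15, 3.94 and 4.18 CPM in Ly6Chi and 8.98, 7.12, 10.5 and 7.18 in Ly6Clo. Kinetochore proteins Cenpe and Cenpf and spindle proteins Kif11, Tpx2 and Nusap1 fell by 1.64 to 1.89, and Kif23 by 1.01 ± 0.18.

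**Figure D3:**
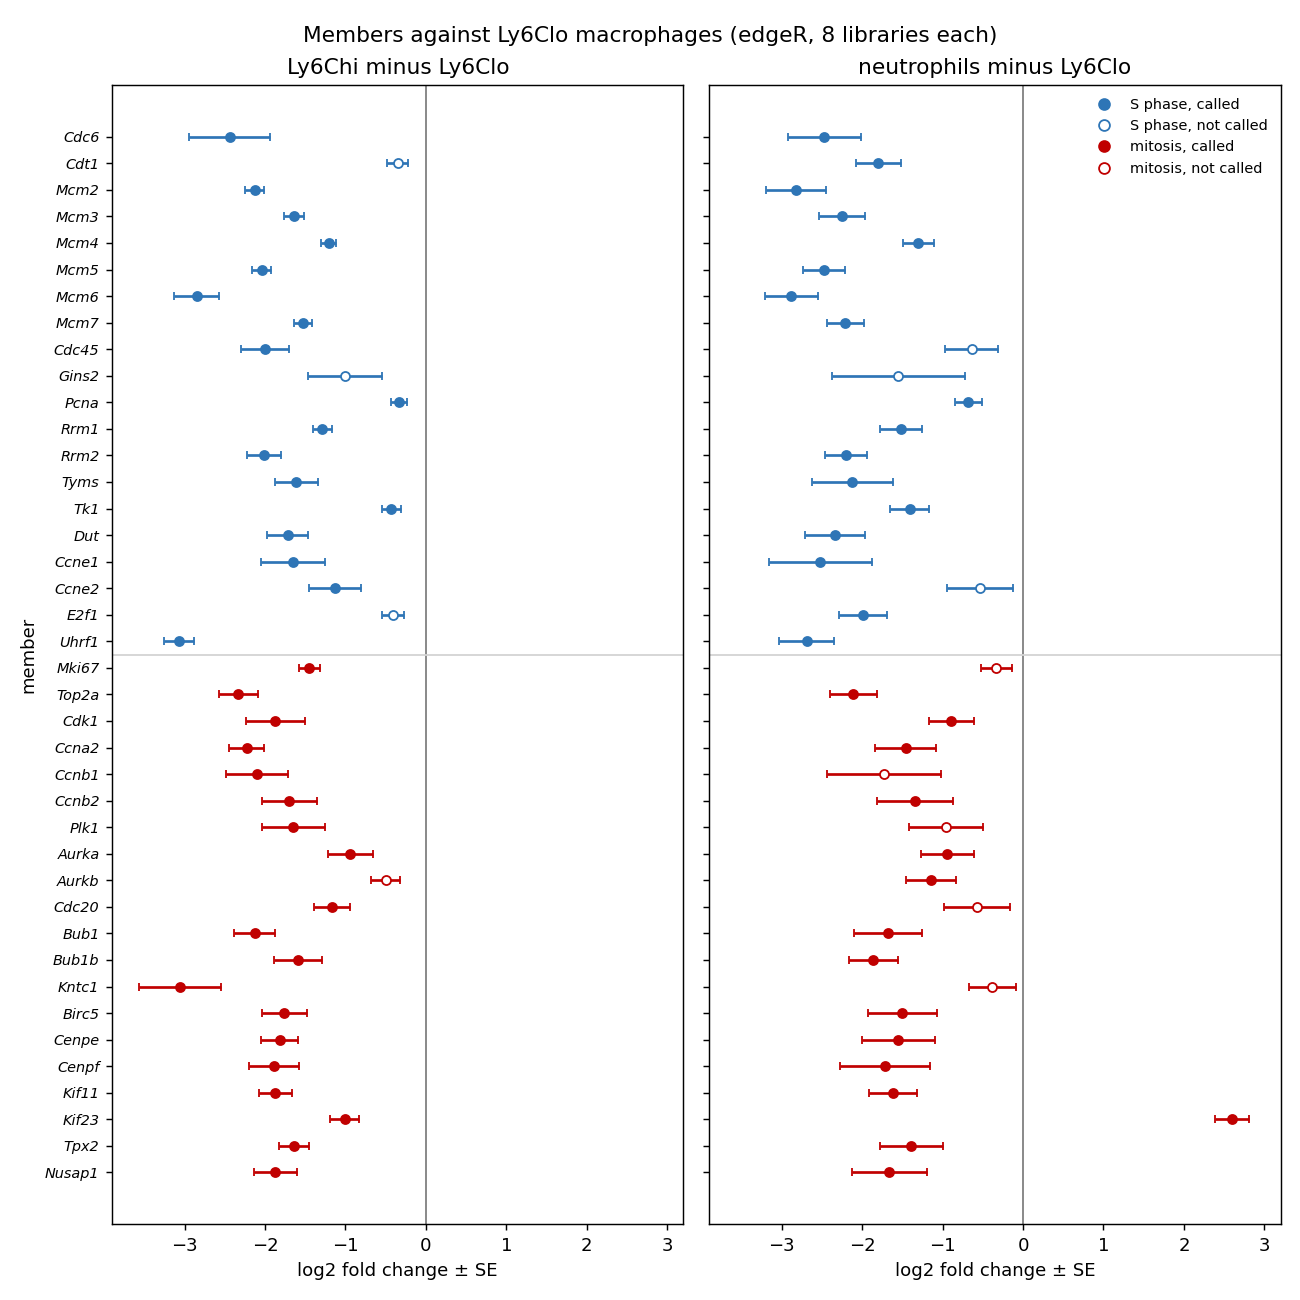
Log2 fold change with SE of each member in Ly6Chi against Ly6Clo (left) and in neutrophils against Ly6Clo (right), filled where called by edgeR (adjusted p of 0.05 over all genes tested). All 40 values on the left are below 0, and on the right Kif23 alone is above 0, at 2.60 ± 0.21.

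Other genes of the same processes were lower too. Of 51 other replication genes, 29 fell and 1 rose in Ly6Chi, the former including the polymerase subunits Pole (-2.83 ± 0.17), Pold1 (-1.65 ± 0.11) and Pola1 (-1.59 ± 0.14). The one that rose, the nuclease and helicase Dna2, was at 205.6 CPM in Ly6Chi and 137.8 in Ly6Clo (0.59 ± 0.09). Of 52 other mitosis genes 44 fell and none rose, among them the condensin subunits Ncapd2 (-2.20 ± 0.16) and Smc2 (-1.56 ± 0.15). Of 20 genes of replication stress and repair, 16 fell, among them Bard1 (-1.93 ± 0.16) and Rad54l (-2.39 ± 0.27). The medians were -0.92, -1.78 and -1.25 on the log2 scale, and of all genes 11% were called lower and 10.9% higher. Of 32 cell cycle regulators tested, 11 fell and 1 rose: the D-type cyclins Ccnd1 (-3.29 ± 0.19) and Ccnd2 (-3.0 ± 0.15), Myc (-1.58 ± 0.17) and Foxm1 (-1.57 ± 0.19) fell, and the cyclin-dependent kinase inhibitor Cdkn1a rose by 1.01 ± 0.11 (adjusted p = 0.00025).

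Markers of other cells moved with this difference. The 11 T and NK cell markers summed to 1098.5, 1084.3, 224.9 and 1201.7 CPM in Ly6Clo and to 6.68 to 169.5 CPM in Ly6Chi, with 10 and 9 of them at a mean of at least 1 CPM. The T cell receptor gene Cd3e was at 1.06 to 2.14 CPM in Ly6Clo and 0.21 to 2.20 CPM in Ly6Chi, Cd3g at 0.458 to 25.7 and 0.00 to 0.869 CPM, and Cd4 at 14.4 to 38.7 and 0.964 to 2.45 CPM. Each of these lay far below the sum in Ly6Clo, and Cd3e overlapped between the populations. The sum also counts NK and cytotoxic genes such as Ncr1, Nkg7, Gzma and Prf1, so it does not tell T cells from NK cells. The Ly6Clo library with the lowest T and NK sum, BALB/c wild type, had an S phase sum of 617.6 CPM and the highest mitosis sum of the 4, 539.4 CPM. It also had the highest neutrophil (1843.6 CPM), hepatocyte (1551.2), sinusoidal endothelial (1029.1) and Kupffer cell (200.7) marker sums of the 4. This library therefore does not differ from the others in T and NK markers alone. The 9 dendritic cell markers summed to 805.8 to 910.0 CPM in Ly6Clo and 365.4 to 432.2 CPM in Ly6Chi, and the 7 markers of haematopoietic progenitors to 130.5 to 274.4 and 19.3 to 60.0 CPM. Flt3 is in both lists, and the progenitor list was highest in DBA-sorted cells, at 446.4 to 711.6 CPM. The part of T, NK, dendritic and progenitor cells in the difference was not tested.

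Neutrophils lay below Ly6Clo for nearly all members. By edgeR, 17 of 20 S phase members fell and none rose, and 14 of 20 mitosis members fell while 1, Kif23, rose, where 23.4% of 18879 genes were called lower and 21.3% higher. The median log2 fold change was -2.16 over S phase members and -1.42 over mitosis members, beside -0.20 over all genes. Mcm6 (-2.88 ± 0.33), Mcm2 (-2.82 ± 0.37) and Uhrf1 (-2.69 ± 0.34) fell the most. Against Ly6Clo, neutrophils also had lower sums of T and NK cell markers (26.7 to 72.7 against 224.9 to 1201.7 CPM), dendritic cell markers (96.4 to 183.1 against 805.8 to 910.0 CPM) and haematopoietic progenitor markers (33.6 to 118.2 against 130.5 to 274.4 CPM), and the part of these cells was not tested. Cdt1 (-1.80 ± 0.28), Tk1 (-1.41 ± 0.24) and E2f1 (-1.99 ± 0.30) fell in neutrophils against Ly6Clo, and these 3 were the S phase members called lower in neutrophils than in Ly6Chi. They fell by 1.46 ± 0.28, 0.98 ± 0.20 and 1.58 ± 0.31 there (adjusted p = 0.00252, 0.00374 and 0.00298). In that comparison 3 S phase members fell, 3 mitosis members rose and 34 members were not called, where 21.7% of 18020 genes were called lower and 21.1% higher.

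Cdt1 was at 8.14, 8.73, 7.53 and 5.12 CPM in neutrophils and at 12.3, 5.47, 17.2 and 12.2 in DBA-sorted cells. Tk1 was at 26.8, 30.5, 15.7 and 16.4 CPM in neutrophils and at 17.1, 17.8, 30.4 and 27.7 in DBA-sorted cells. E2f1 was at 3.38, 7.25, 4.32 and 2.84 CPM in neutrophils and at 12.2, 9.66, 13.8 and 9.04 in DBA-sorted cells. For all 3 genes each neutrophil library lay below every Ly6Chi library. Cdc20 was at 1.88, 6.64, 10.3 and 6.06 CPM in neutrophils and 6.49, 11.3, 14.2 and 6.83 in DBA-sorted cells, and Birc5 at 1.13, 2.89, 3.82 and 2.37, and 4.63, 4.14, 4.22 and 2.12. For these 2 genes neutrophils overlapped with DBA-sorted cells. Depth limits the lowest values: Gins2 and Ccnb1 had no count in the C57BL/6 wild type neutrophil library, where 3 counts, the limit that a count of 0 allows, would be 0.376 CPM.

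Kif23 was the exception among the 40. It encodes a kinesin that, with Racgap1, bundles the microtubules of the central spindle and is needed for the last step of division, cytokinesis. The gene (ENSMUSG00000032254) lies on the minus strand of chromosome 9 at 61915905 to 61946774 (GRCm38, GENCODE M21), and no annotated gene overlaps it. It was at 20, 19.3, 14.4 and 8.55 CPM in Ly6Chi, 32.5, 29.1, 45.1 and 18.2 in Ly6Clo, 210.3, 162.3, 184.5 and 167.6 in neutrophils, and 13, 10.2, 20.6 and 10.7 in DBA-sorted cells. Each neutrophil library was far above every other library. Kif23 was higher in neutrophils by 2.60 ± 0.21 on the log2 scale than in Ly6Clo (adjusted p = 1.59e-05) and by 3.61 ± 0.23 than in Ly6Chi (adjusted p = 8.33e-06), and lower in DBA-sorted cells by 3.94 ± 0.23 than in neutrophils (adjusted p = 3.76e-06).

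Mki67 and Kntc1, a protein of the kinetochore, were the other mitosis members called higher in neutrophils than in Ly6Chi, by 1.11 ± 0.23 and 2.69 ± 0.66 (adjusted p = 0.00423 and 0.00917). Mki67 was at 84.2, 111.2, 103.8 and 152.9 CPM in neutrophils, overlapped with Ly6Clo and was not called against it (-0.33 ± 0.19, adjusted p = 0.174). In DBA-sorted cells Mki67 was at 72.8, 113.0, 124.2 and 82.9 CPM and Top2a at 58.4, 81.5, 126.6 and 60.2. In neutrophils Top2a was at 9.51, 29.5, 33.7 and 18.8 CPM and fell against Ly6Clo by 2.11 ± 0.29. The mean of Top2a was 22.9 CPM in neutrophils, 20.2 in Ly6Chi and 91.2 in Ly6Clo, while that of Mki67 was 113.0, 52.0 and 139.7 CPM. Mki67 has the antisense gene Gm45240, and the strand setting of the counting is not given in the sources used here.

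Of the 52 other mitosis genes, 31 fell and 2 rose in neutrophils against Ly6Clo, where 23.4% of all genes were called lower and 21.3% higher. Against Ly6Chi 6 fell and 4 rose, smaller shares than the 21.7% lower and 21.1% higher of all genes. The 4 that rose against Ly6Chi were Cdc25b (2.65 ± 0.28), a phosphatase that activates Cdk1, Pttg1 (1.94 ± 0.30), the securin that holds back separase, Sgo1 (1.86 ± 0.43), which guards cohesin at centromeres, and Ect2 (1.36 ± 0.40), the exchange factor of cytokinesis. Racgap1, the partner of Kif23, was among those that fell (-1.53 ± 0.28, adjusted p = 0.0019). Of 51 other replication genes, 37 fell in neutrophils against Ly6Clo and none rose, among them Topbp1 (-2.11 ± 0.17) and Wdhd1 (-3.43 ± 0.34). Of the genes of replication stress and repair 15 of 20 fell, among them the checkpoint kinases Atm (-2.34 ± 0.21) and Atr (-1.60 ± 0.18).

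Among 32 regulators tested, 18 fell and 5 rose in neutrophils against Ly6Clo, where 23.4% of all genes were called lower and 21.3% higher. The inhibitors of cyclin-dependent kinases Cdkn2d (2.26 ± 0.23) and Cdkn1b (1.38 ± 0.23), the cyclin Ccnd3 (0.89 ± 0.19) and the factor E2f2 (0.76 ± 0.17) were among those that rose, and Cdc25a (-2.13 ± 0.25) and Ccnd1 (-2.48 ± 0.37) among those that fell. The 6 markers of immature neutrophils (Elane, Mpo, Prtn3, Ctsg, Ms4a3 and Cebpe) summed to 14.3 to 30.9 CPM in neutrophils, beside 13.3 to 22.7 CPM in Ly6Chi. In neutrophils 3 of them were at a mean of at least 1 CPM. Elane, a granule gene, was at 0.00 to 1.80 CPM in neutrophils. Cebpe, a transcription factor of granulocyte maturation, was at 8.23 to 24.9 CPM there and 3.60 to 8.62 CPM in Ly6Chi. The sum is therefore not one of granule genes alone.

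**Figure D4:**
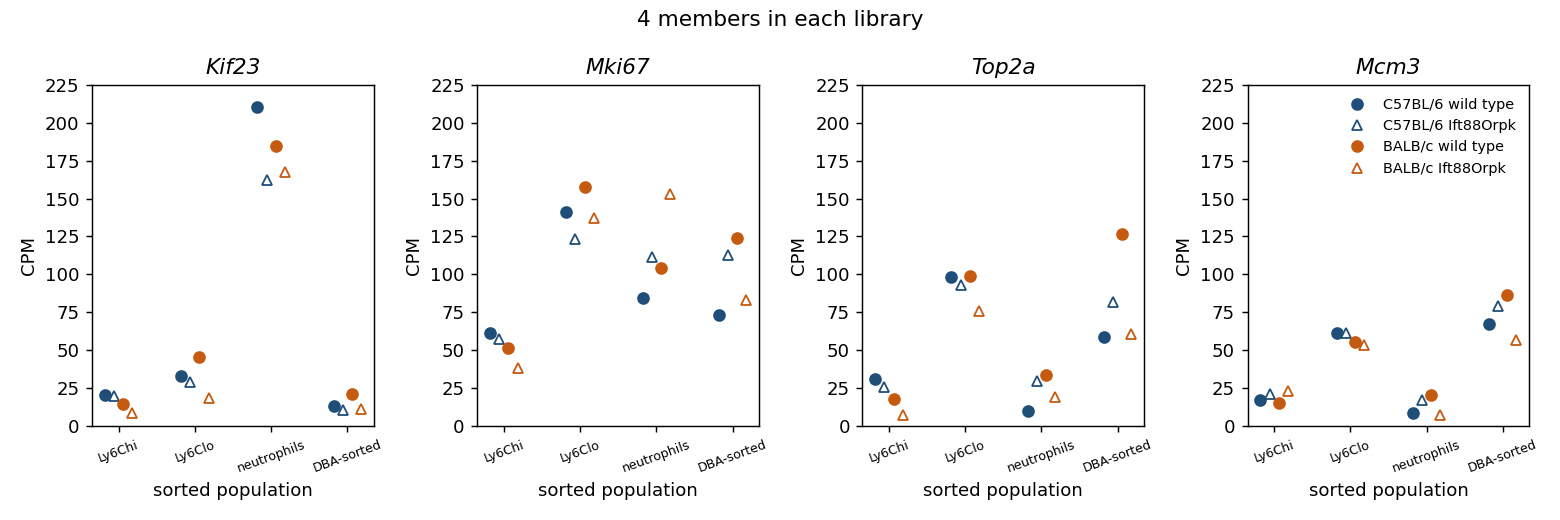
CPM of Kif23, Mki67, Top2a and Mcm3 in each library by sorted population, on one linear scale, with strain by colour and genotype by symbol. Kif23 is highest in the 4 neutrophil libraries, Mki67 is at 84.2 CPM or more both there and in Ly6Clo, and Top2a and Mcm3 are high in Ly6Clo and DBA-sorted cells.

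Between DBA-sorted cells and Ly6Clo few members were called. Of the S phase members 4 fell against Ly6Clo (Tk1, Cdt1, Rrm2 and Mcm4), and of the mitosis members 2 rose (Cdk1 and Cenpf) and 2 fell (Kif23 and Mki67), where 21.3% of 20491 genes were called higher and 19.3% lower. Of these 8 calls, 5 were kept without C57BL/6 wild type, 4 without C57BL/6 Ift88Orpk, 6 without BALB/c wild type and 4 without BALB/c Ift88Orpk. Cdk1 missed the threshold without C57BL/6 Ift88Orpk (adjusted p = 0.052). Of the others, Cenpf (adjusted p = 0.0586 to 0.155), Mki67 (0.07 to 0.196), Rrm2 (0.071 to 0.0952) and Mcm4 (0.0834 to 0.148) each missed it in 3 of the 4 fits that left one strain and genotype out. Tk1 fell by 1.29 ± 0.17 (adjusted p = 0.000833) and Cdk1 rose by 0.98 ± 0.21 (adjusted p = 0.00838). A member that was not called is not thereby shown to be alike in both.

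Against Ly6Chi, 11 S phase members rose in DBA-sorted cells and 2 fell (Tk1 and Cdt1), and 16 mitosis members rose and none fell, where 23.7% of 19895 genes were called higher and 21.1% lower. The largest rises were those of Kntc1 (3.06 ± 0.72), Cdk1 (2.85 ± 0.45), Cenpf (2.77 ± 0.31) and Mcm6 (2.67 ± 0.40). The call of Cdt1 was lost with any one strain and genotype left out (adjusted p = 0.0518 to 0.118), and that of Tk1 without C57BL/6 wild type or C57BL/6 Ift88Orpk (adjusted p = 0.0973 and 0.067). Kntc1 missed the threshold without BALB/c wild type (adjusted p = 0.0555). Medians were 1.21 and 1.90, beside -0.01 over all genes. Against neutrophils, 10 S phase members and 10 mitosis members rose and 1, Kif23, fell, where 23.2% of 19937 genes were called higher and 22.8% lower. Medians were 1.4 and 1.34, beside 0.20 over all genes. Mcm2 (2.55 ± 0.38) and Mcm6 (2.52 ± 0.33) rose the most.

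Among 33 regulators tested, 7 rose and 9 fell in DBA-sorted cells against Ly6Clo, shares near the 21.3% higher and 19.3% lower of all genes. The kinase Cdk4 (1.35 ± 0.13), the repressor E2f7 (2.33 ± 0.25), the kinase inhibitor Cdkn2c (1.73 ± 0.26) and E2f3 (1.12 ± 0.19) were among those that rose, and Ccnd3 (-1.70 ± 0.18), E2f2 (-2.84 ± 0.35) and the retinoblastoma family members Rb1 (-1.25 ± 0.17) and Rbl2 (-1.22 ± 0.16) among those that fell. Of other replication genes 3 of 51 rose and 8 fell, and of other mitosis genes 5 of 52 rose and 1 fell. Ccnd3, the D-type cyclin highest in neutrophils, was at 446.8 ± 99.0 CPM there, 237.4 ± 41.1 and 238.2 ± 24.7 in Ly6Chi and Ly6Clo, and 73.6 ± 24.7 in DBA-sorted cells, while Ccnd1 was at 19.8 ± 10.1, 11.3 ± 4.63, 120.3 ± 72.0 and 153.5 ± 49.9 CPM in the same order (mean ± SD, n = 4). In DBA-sorted cells Ccnd1 rose by 3.82 ± 0.19 against Ly6Chi and by 2.86 ± 0.29 against neutrophils, and Ccnd3 fell by 1.70 ± 0.20 and 2.79 ± 0.23.

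Genotype left no member called in any population. Ift88Orpk against wild type gave 0 of 40 members and 0.0% of 21534 genes by edgeR in each of Ly6Chi, Ly6Clo, neutrophils and DBA-sorted cells, in a fit of 16 libraries in which the strains serve as replicates. DESeq2 called 0 members in each as well, and 3, 11, 26 and 83 genes in all. At an unadjusted p below 0.05 there were 1, 1, 0 and 1 members, and 408, 348, 934 and 1140 genes. The median member changed by -0.16, -0.19, 0.32 and -0.08 on the log2 scale. The members below that unadjusted level were Kntc1 in Ly6Chi (-2.11 ± 0.48, adjusted p = 1.0), Kif23 in Ly6Clo (-0.73 ± 0.32, adjusted p = 1.0) and Cdt1 in DBA-sorted cells (-0.82 ± 0.32, adjusted p = 0.892).

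The single libraries behind these values differed between strains. In C57BL/6, the mitosis sum of Ift88Orpk was 0.902 of wild type in Ly6Chi, 0.923 in Ly6Clo, 1.18 in neutrophils and 1.37 in DBA-sorted cells. In BALB/c the ratios were 0.701, 0.729, 0.959 and 0.622. The S phase ratios were 1.0, 1.02, 1.48 and 1.09 in C57BL/6 and 1.09, 0.970, 0.782 and 0.824 in BALB/c. In BALB/c, 0 of 20 mitosis members were higher in Ift88Orpk than in wild type in Ly6Clo and 0 of 20 in DBA-sorted cells, where in C57BL/6 there were 8 and 15. In neutrophils the median member ratio of the mitosis members was 2.15 in C57BL/6, with 18 of 20 members higher in Ift88Orpk, and 0.711 in BALB/c, with 5 of 20 higher. These pairs are 1 library against 1, with no replicate, and their intervals cover counting error only.

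**Figure D5:**
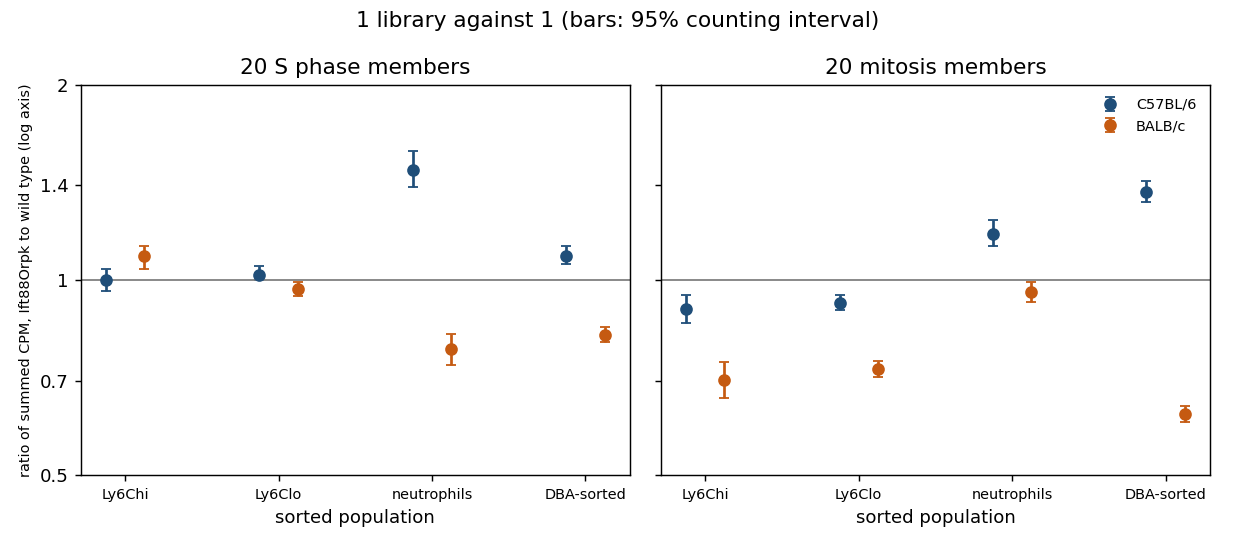
Ratio of the summed CPM of Ift88Orpk to wild type, on a log axis, for S phase members (left) and mitosis members (right) by population and strain, with 95% counting intervals from exact binomial bounds. The mitosis ratio of BALB/c lies below that of C57BL/6 in each population, down to 0.622 (0.604 to 0.640) in DBA-sorted cells.

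A test of the strain by genotype difference shared by the populations, chosen after the values were seen, called 0 of 40 members and 0.0% of genes by edgeR. DESeq2 called 0 members and 227 genes, and at an unadjusted p below 0.05 edgeR had 6 members and 1202 genes. The difference of Ift88Orpk from wild type was lower in BALB/c than in C57BL/6 for all 20 mitosis members and 18 of 20 S phase members, with medians of -0.91 and -0.50, beside 0.03 over all genes. The smallest p was that of Top2a (-1.31 ± 0.34, adjusted p = 0.487). Markers of other cells differed between the same libraries: in BALB/c Ly6Clo the T and NK sum was 224.9 CPM without the allele and 1201.7 CPM with it, and in BALB/c DBA-sorted cells the endothelial sum was 22381.2 and 13928.1 CPM and the stellate sum 1847.4 and 9591.7 CPM. In neutrophils the endothelial sum went from 726.9 to 1921.1 CPM in C57BL/6 and from 3076.1 to 811.7 CPM in BALB/c. The S phase sum went in these directions, and so did other marker sums. Among them were the hepatocyte (2156.0 to 3130.4 and 4788.4 to 2250.4 CPM) and Kupffer cell sums (222.3 to 468.2 and 712.0 to 206.1 CPM). The B cell sum fell in both strains (179.9 to 123.2 and 327.9 to 71.3 CPM). The part of such cells in these ratios was not tested.

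Strain also left no member called by edgeR. BALB/c against C57BL/6 gave 0 of 40 members in each population, where 0.334% of 21534 genes were called in Ly6Chi, 0.306% in Ly6Clo, 1.34% in neutrophils and 0.297% in DBA-sorted cells. Unadjusted p was below 0.05 for 10 members in Ly6Chi, 0 in Ly6Clo, 3 in neutrophils and 2 in DBA-sorted cells, and for 1718, 1552, 2598 and 2000 of all genes. DESeq2 called 4 members in Ly6Chi and 0 in the others, and 517, 394, 928 and 486 of all genes in the same order. In Ly6Chi 35 of 40 members were negative, with a median of -0.70 on the log2 scale beside -0.06 over all genes, and 29 were lower in BALB/c in both genotypes.

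The helicase subunit Mcm6 and the checkpoint protein Bub1b had the smallest DESeq2 p-values of the 4 members it called. Mcm6 was at 17.6 and 15.6 CPM in C57BL/6 and at 4.15 and 3.02 in BALB/c (-2.22 ± 0.51, adjusted p = 0.183 by edgeR and 0.0039 by DESeq2). Bub1b was at 14.5 and 13.9 CPM in C57BL/6 and at 2.84 and 3.60 in BALB/c (-2.15 ± 0.46, adjusted p = 0.147 by edgeR and 0.00243 by DESeq2). Both were also called by edgeR in the 4 Ly6Chi libraries alone (adjusted p = 0.0309 and 0.0418). That fit has 1 residual degree of freedom, and the share of all genes called in it is not given here. In Ly6Clo Mcm6 was at 76.3 and 77.0 CPM in C57BL/6 and 39.7 and 48.8 in BALB/c, and in DBA-sorted cells at 51.8 and 57, and 48.5 and 41.5. The T and NK sum in Ly6Chi was 165.0 and 169.5 CPM in C57BL/6 and 6.68 and 10.7 CPM in BALB/c. Also lower in BALB/c were the haematopoietic progenitor (60.0 and 47.2 against 38.3 and 19.3 CPM) and neutrophil sums (1133.3 and 1611.7 against 560.5 and 616.0 CPM). The Ly6Chi monocyte sum was higher there (7077.0 and 6361.9 against 7935.8 and 8663.1 CPM). The part of such cells in the difference was not tested.

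Whether genotype or strain acted differently in the 2 macrophage types was tested directly. Genotype by macrophage type called 0 of 40 members and 0.0% of 21534 genes by edgeR, with 1 member and 144 genes at an unadjusted p below 0.05, and 0 genes by DESeq2. Strain by macrophage type called 0 of 40 members and 0.0% of genes, with 4 members and 400 genes at that unadjusted level, and 0 members and 28 genes by DESeq2. In the 8 macrophage libraries alone the latter test called 2 members, Top2a and Mcm6. The share of all genes called in that fit is not given here, so these calls cannot be set beside it. The smallest p among members was that of Kntc1 (-2.15 ± 0.66, adjusted p = 1.0).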

How the data were processed

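RNA-seq libraries of 16 pooled samples were analysed from the deposited counts, whole numbers per gene made by the authors with STAR and HTSeq-count 0.9.1 on GRCm38, per the submitters' processing notes. GRCm38 is a C57BL/6J genome, used for both strains. The sources used here give no STAR version, annotation release or strand setting, so reads of overlapping antisense genes cannot be told apart. HTSeq's 5 summary lines were left out, and 44.75 to 57.28% of counted reads were in genes. Per-gene positions came from GENCODE M21.

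CPM used TMM factors, which offset differences in composition between libraries. Tests were edgeR's quasi-likelihood tests (4.0.16, R 4.3.3). P-values were adjusted by Benjamini-Hochberg across every gene of a fit, and 0.05 was the threshold. The 6 population comparisons each used 8 libraries with strain and genotype together as a block. Genotype, strain and their differences were fitted over all 16 libraries. DESeq2 1.42.0, other scaling, filters and left-out libraries were alternatives. The SE was taken from the F statistic. The fits were tested on simulated data. Intervals cover counting error only.

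Members and lists were chosen with earlier results of these data known. All 40 members may be named. Given in every library are the members highest per kilobase in each role (1, or 2 in roles of 5 or more) and those called against their phase's majority. From the other lists up to 4 called genes of smallest p and up to 4 called against the list's majority may be named. Top2a, Bub1b and Mcm6 were given by library after their values were seen. Libraries of one strain and genotype may share mice, which the labels do not state. Cufflinks 2.2.1, which the notes also name, gave no value used here.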

Additional observations from a re-analysis of the deposited data

Results flagged for a closer look

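Within groups of 4 libraries, 172 sets of values were examined for 1 library that lay far from the other 3, and 6 were found, where chance gives about 1 in 20. The S to mitosis ratio of the BALB/c Ift88Orpk Ly6Chi library was 2.7, against 1.55 to 1.74 in the other Ly6Chi libraries. In that library Ccnb1 was at 0.45 CPM, against 2.79 to 3.23 CPM. The C57BL/6 Ift88Orpk Ly6Chi library had Tk1 at 53.4 CPM, against 38.7 to 40.5 CPM. Bub1 was at 4.99 CPM in the C57BL/6 wild type Ly6Chi library, against 1.47 to 1.61 CPM. In neutrophils, Rrm2 was at 7.56 CPM in the C57BL/6 Ift88Orpk library, against 4.01 to 4.55 CPM, and Aurka at 8.69 CPM in the BALB/c wild type library, against 3.0 to 3.93 CPM.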

How the results depend on the processing

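No called member changed direction under any alternative run, while the genotype ratios of S phase members in C57BL/6 Ly6Clo and of mitosis members in BALB/c neutrophils crossed 1, as given at the end. Of the called members, 24 of 36 in Ly6Chi against Ly6Clo, 22 of 32 in neutrophils against Ly6Clo, 6 of 6 in neutrophils against Ly6Chi, 3 of 8 in DBA-sorted cells against Ly6Clo, 20 of 29 against Ly6Chi and 16 of 21 against neutrophils kept their call under every alternative. With 1 strain and genotype left out, the calls numbered 4 to 8 in DBA-sorted cells against Ly6Clo, counting members not called in the main fit. For strain in Ly6Chi, 4 members were called by DESeq2 and 2 in its 4 libraries alone, and for strain by macrophage type 2 in the 8 macrophage libraries alone, against 0. For the fits of 4 and 8 libraries the share of all genes called is not given here. The population comparisons had strain and genotype as a block, and without it the calls numbered 30, 27, 7, 6, 28 and 22 in the order above. In a fit over all 16 libraries, 26 of the 36 calls in Ly6Chi against Ly6Clo were kept. Cdc6, Ccnb1, Ccnb2 and Cdc20 were among those lost (adjusted p = 0.0577 to 0.106).

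Without Pcna the S phase sum was 211.0 CPM in Ly6Chi, 563.0 in Ly6Clo and 148.5 in neutrophils, and without scaling factors 746.6 in Ly6Clo, 159.3 in neutrophils and 583.0 in DBA-sorted cells. Without Mki67 the mitosis sum was 103.7 CPM in Ly6Chi, 328.2 in Ly6Clo and 293.7 in neutrophils, without Kif23 as well 88.2, 297.0 and 112.5, and without scaling factors 532.5 in Ly6Clo and 313.4 in neutrophils. The mean S to mitosis ratio was 1.93, 1.41, 0.5 and 1.23 in Ly6Chi, Ly6Clo, neutrophils and DBA-sorted cells. In the same order it was 3.03, 2.17, 0.968 and 1.73 per kilobase of exon, and 3.52, 2.23, 1.99 and 1.68 without Kif23 and Mki67. Without these genes the neutrophil ratio was no longer the lowest. In Ly6Clo the ratio was 1.75 without Pcna and Mki67. Settings without Kif23 and without scaling factors were chosen after seeing the data.

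By the median of the members' ratios, the Ift88Orpk to wild type ratio of mitosis members was 0.949 (C57BL/6) and 0.765 (BALB/c) in Ly6Chi, 0.992 and 0.707 in Ly6Clo, and 2.15 and 0.711 in neutrophils. That of S phase members was 0.993 and 0.944 in Ly6Clo, 1.86 and 0.72 in neutrophils, and 1.14 and 0.882 in DBA-sorted cells. With RLE factors the mitosis ratio of BALB/c neutrophils was 1.01. Depth limits members with few counts, such as Gins2.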
